A study of Mus musculus with 12 samples.

Results

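The genes described here are those whose difference between capsaicin-treated (CAP) and sham (P-F127) skin wounds of mice was not the same at day 3 and at day 6 of repair. They were found with an interaction contrast, that is the CAP effect at day 6 minus the CAP effect at day 3, each effect being CAP minus P-F127 on the scale log2(TPM + 0.1). TPM is a read level scaled to transcript length and to the sum of the library. Of 55487 genes in the tables, 20267 had a mean of 0.3 TPM or more in at least 1 of the 4 groups and were tested, and 15210 of those were protein-coding. An interaction with an unadjusted limma p under 0.05 and at least 2-fold in size was found for 660 protein-coding genes, and 299 of them fell into 1 of 3 classes that describe the effect. In 28 genes it was reversed (unadjusted p under 0.05 at both days, opposite signs). In 48 genes it was seen at day 3 only and in 223 at day 6 only, which means at least 2-fold with an unadjusted p under 0.05 at that day, and under 0.5 log2 with a p of 0.05 or more at the other.

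The animals were male 6-week-old C57BL/6JNarl mice with full-thickness punch wounds, 6 mm wide, on the back. All 4 groups received 200 µl of Pluronic F127 gel (25% in saline) daily under a film dressing. The CAP_Day3 and CAP_Day6 groups had 10 µM capsaicin in the gel, and the P-F127_Day3 and P-F127_Day6 groups, the sham wounds, had the gel alone, so that every group carries the wound, the gel and the dressing. RNA of the wound with its surrounding tissue was sequenced in 3 libraries per group, 12 in all, and an unwounded or untreated group was not analysed here. The labels do not say whether libraries came from separate mice, so p-values measure the spread between these libraries, which may be technical in part. Marker genes of skin were present throughout: keratinocyte markers summed to between 15060 and 33720 TPM per library, and fibroblast markers to between 690.9 and 1560 TPM. Skeletal muscle markers summed to between 2986 and 9057 TPM.

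Capsaicin, the pungent compound of chili peppers, opens TRPV1, an ion channel of pain-sensing nerve endings that is also described in keratinocytes and immune cells. A skin wound first fills with clotted blood and inflammatory cells, is then closed by keratinocytes migrating under the scab, and is finally covered by a new epidermis that differentiates from its basal layer outwards. In that differentiation the suprabasal cells switch keratins and build the cornified envelope, a crosslinked protein shell whose genes lie side by side in the epidermal differentiation complex. A treatment effect that differs between days is therefore read against phases in which the cell make-up of the sample itself changes. In bulk tissue, fewer cells of a type and less RNA per cell cannot be told apart.

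Promoters of 3 genes lower with CAP at day 3 only are printed first, because the interferon-inducible genes of that class are described below and the ISRE is the element through which interferon-activated factors bind DNA. The ISRE letters searched were GAAANNGAA, on both strands. They occurred in the promoters of 8 of the 30 genes with an entry (26.7%) among the 39 genes lower with CAP at day 3 only, against 1054 of 11824 protein-coding genes tested (8.9%). The 8 genes were Folr2, Cxcl9, Gzma, BC147527, Gpr18, Rnase6, Btla and Rspo1. Cxcl9 alone of them is on the interferon response list used below, and the interferon-inducible genes Ifi27l2a and Irf7 are not among the 8. Among the genes lower with CAP at day 6 only, 12 of 71 with an entry held the letters (16.9%), and among those higher with CAP at day 6 only, 8 of 91 (8.8%). Of the reversed genes, 2 of 11 lower with CAP at day 3 held them (18.2%) and 1 of 15 higher at day 3 (6.7%). Of the genes higher with CAP at day 3 only, 0 of 6 did. Other motifs, CRE (TGACGTCA), AP-1 (TGANTCA) and E-box (CACGTG), were searched too. Among the 30 they occurred in 3.3%, 10.0% and 13.3%, against 3.2%, 7.2% and 11.1% of the 11824. A match is a description of the letters, not evidence of a bound site. The 3 shown are those with an ISRE match and the smallest interaction p. The promoters, 250 bases before to 50 after a gene start, are from RefSeq on GRCm38.p6 and lie at chr7:101857141-101857440 for Folr2, chr5:92328030-92328329 for Cxcl9 and chr13:113100932-113101231 for Gzma, all on the minus strand. Capitals mark the match, which begins 23 bases before the start in Folr2 and 175 in Cxcl9. In Gzma the matches begin 96 and 66 bases before it.
Folr2: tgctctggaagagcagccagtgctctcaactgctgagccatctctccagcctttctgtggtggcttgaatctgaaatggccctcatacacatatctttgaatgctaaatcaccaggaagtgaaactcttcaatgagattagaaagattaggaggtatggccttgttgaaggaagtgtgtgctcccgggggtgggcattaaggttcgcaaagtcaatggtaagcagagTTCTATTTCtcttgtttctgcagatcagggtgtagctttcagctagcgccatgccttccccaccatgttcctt
Cxcl9: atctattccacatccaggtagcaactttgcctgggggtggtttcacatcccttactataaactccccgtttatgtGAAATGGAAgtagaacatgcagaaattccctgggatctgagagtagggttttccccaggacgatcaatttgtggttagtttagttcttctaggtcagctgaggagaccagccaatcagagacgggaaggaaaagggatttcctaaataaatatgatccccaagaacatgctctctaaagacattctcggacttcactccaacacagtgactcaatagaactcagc
Gzma: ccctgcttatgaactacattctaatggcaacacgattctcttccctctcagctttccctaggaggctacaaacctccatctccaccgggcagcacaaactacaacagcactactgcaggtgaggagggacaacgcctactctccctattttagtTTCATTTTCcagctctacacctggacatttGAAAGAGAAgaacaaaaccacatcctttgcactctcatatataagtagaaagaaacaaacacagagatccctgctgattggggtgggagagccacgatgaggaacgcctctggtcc

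No gene had a Benjamini-Hochberg adjusted interaction p under 0.05 in limma (0% of 20267, smallest 0.172), while 2292 genes (11.3%) had an unadjusted p under 0.05. With the 2-fold limit, 994 genes (4.9%) were past the threshold, 441 of them above 0 (2.18%) and 553 below 0 (2.73%); for protein-coding genes alone the share was 4.34%. Above 0 means that the CAP effect was higher at day 6 than at day 3. The median interaction over all genes tested was -0.06, the median CAP effect was -0.05 at day 3 and -0.12 at day 6. Since the classes were drawn from the same contrasts, the values below describe the members and are no further test of them. Among the genes named by class below, the limma adjusted interaction p was 0.428 for all but Gm10961.

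**Figure D1:**
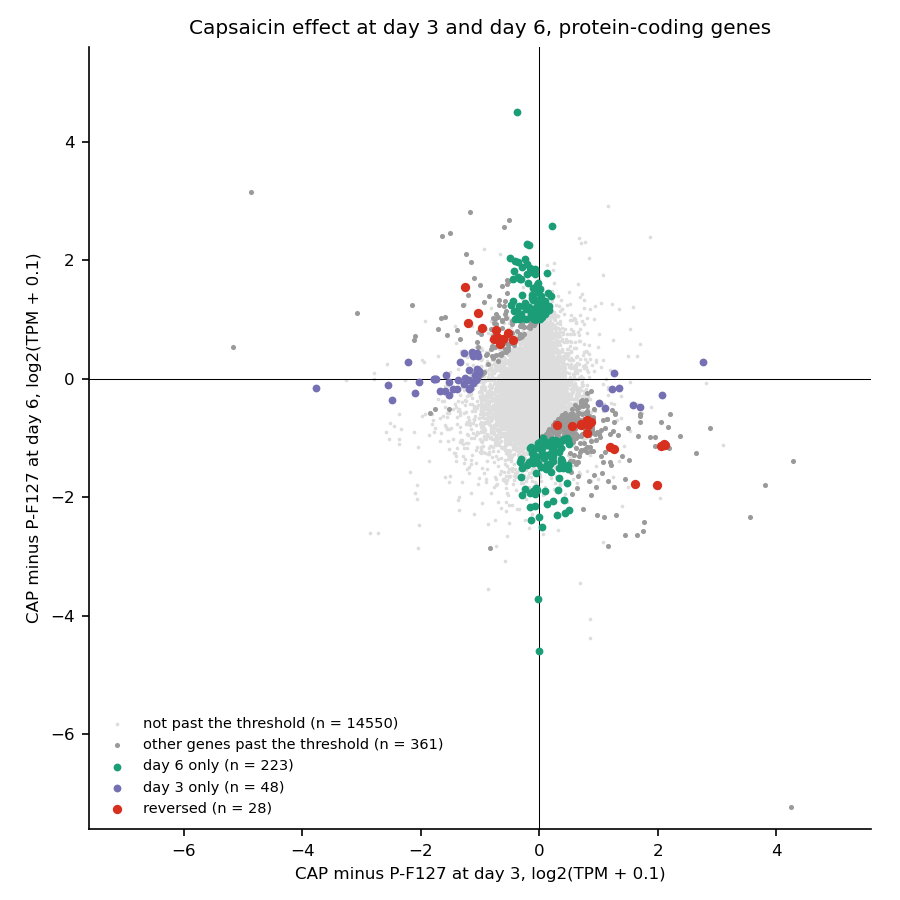
CAP effect at day 3 (x axis) and at day 6 (y axis), both as the difference of log2(TPM + 0.1) between CAP and P-F127, 1 point per protein-coding gene tested. The 28 reversed genes lie in the upper left and lower right quadrants, the 48 day 3 only genes along the x axis and the 223 day 6 only genes along the y axis.

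The CAP_Day6 library of replicate 2 stood apart. Its 10 most abundant genes took 14.1% of all TPM, against 8.27% to 11.3% in the other 11 libraries. Krt10, a keratin of the suprabasal epidermis, was at 40800 TPM in it, against 19540 and 16990 TPM in the other CAP_Day6 libraries and 4187 to 10980 TPM in the other 9. Without it, 657 genes were past the threshold in place of 994, and day 6 only genes numbered 83 in place of 223. Of the 223 day 6 only genes, 95 were still past the threshold without it, as were 27 of the 28 reversed genes and 31 of the 48 day 3 only genes, and all 299 kept the sign of the interaction. Other libraries moved the counts too: without CAP_Day6 replicate 3, 1777 genes were past the threshold, 703 were day 6 only and 112 were reversed.

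The reversed genes comprised 12 that were lower with CAP at day 3 and higher at day 6, and 16 with the opposite order. The first set had day 3 effects from -1.26 to -0.44 and day 6 effects from 0.59 to 1.56. The second had day 3 effects from 0.29 to 2.12 and day 6 effects from -1.79 to -0.70. In 10 of the 28 the 3 CAP and 3 P-F127 libraries did not overlap at either day, and 0.612% of all genes tested showed such a pattern with opposite directions, 124 genes in number.

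All 4 adult hemoglobin genes measured were reversed. Hba-a2, an alpha globin gene (mm10, the build of all gene positions here, chr11:32296489-32297298, plus strand), was at 243.1, 184.0 and 172.0 TPM in P-F127_Day3 and at 781.7, 859.7 and 940.0 TPM in CAP_Day3. At day 6 it was at 845.2, 728.4 and 1877 TPM with P-F127 and at 433.7, 241.4 and 1071 TPM with CAP. All CAP libraries were thus above all sham libraries at day 3, whereas at day 6 the third CAP library lay above the first and second sham libraries. The CAP effect on Hba-a2 was 2.12 log2 at day 3 (95% interval 1.08 to 3.16) and -1.12 at day 6 (-2.16 to -0.08), an interaction of -3.24 ± 0.67 (SE, n = 3 libraries per group). Between the days, the gene was 2.41 log2 higher at day 6 in sham wounds (1.37 to 3.45) and in CAP wounds the difference was -0.83, with an interval from -1.87 to 0.21.

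Hba-a1, Hbb-bt and Hbb-bs went with it, with day 3 effects of 2.098, 2.056 and 2.107 and day 6 effects of -1.12, -1.14 and -1.09 (Hba-a1 first, Hbb-bs last). The globin copies share sequence: 92.6% of the 31-base stretches of Hba-a2 also stand in other genes, most of them in Hba-a1, so reads may have been divided between them. Of 7 erythroid marker genes tested, 6 were past the interaction threshold below 0. At day 3, 6 of the 7 were higher with CAP by the 2-fold rule, against 0.75% of all genes, and at day 6, 4 were lower, against 3.23%. The 6 interaction calls held under each left-out library, while the 4 calls at day 6 went to 0 without P-F127_Day6 replicate 3, without CAP_Day6 replicate 1 or without CAP_Day6 replicate 2. The list's median interaction was -3.20 with all libraries and -2.70 without CAP_Day6 replicate 2, where the median day 6 effect went from -1.12 to -0.60.

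Several platelet genes showed the same order. Pf4, platelet factor 4, a chemokine of platelet granules (chr5:90772435-90773383, plus strand), was at 396.5, 234.3 and 338.4 TPM in sham wounds at day 3 and at 438.7, 438.1 and 509.5 TPM with CAP. By day 6 the values were 132.9, 191.1 and 164.9 TPM in sham wounds and 83.07, 72.87 and 130.6 TPM with CAP. The groups did not overlap at either day, and the direction was opposite. Its interaction was -1.35 ± 0.34 (SE), from an effect of 0.55 at day 3 and -0.80 at day 6. Its neighbour Ppbp, pro-platelet basic protein, had effects of 1.19 (interval 0.32 to 2.07) and -1.15 (-2.03 to -0.28). The sham level of Ppbp went from 33.77, 12.17 and 13.29 TPM at day 3 to between 1.63 and 2.79 TPM at day 6, so the day 6 difference was one between low levels. Of 6 platelet markers tested, 4 were past the threshold below 0 (2.73% of all genes), with all libraries and with any 1 left out. Treml1 and Gp9 were the others. Gp9, a subunit of the platelet receptor for von Willebrand factor, was listed at 0 in all 3 sham libraries at day 3, and no fold is given for it.

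The summed levels of blood and vessel markers stand beside these values. The erythroid markers summed to between 514.2 and 753.2 TPM in P-F127_Day3, 2357 and 2804 in CAP_Day3, 2114 and 5623 in P-F127_Day6, and 716.3 and 3185 in CAP_Day6. Endothelial markers summed to between 242.3 and 319.1 TPM and between 228.2 and 332.1 TPM in the P-F127 and CAP groups of day 3, which overlapped, and to between 591.2 and 800.2 TPM and between 182.2 and 539.6 TPM at day 6, which did not. Of 13 endothelial markers, 1 was past the interaction threshold, below 0 (2.73% of all genes), and the count was not firm. It was 10 without CAP_Day6 replicate 1, 6 without CAP_Day6 replicate 3, 5 without CAP_Day3 replicate 3, and 1 or 2 without any other library. The gene called with all libraries was Cldn5, the claudin of endothelial tight junctions, with -1.5 ± 0.41 (SE). Its levels were 2.42, 2.25 and 2.98 TPM in sham and 4.47, 3.06 and 3.64 TPM in CAP wounds at day 3, and 9.85, 9.25 and 11.2 TPM in sham and 6.16, 2.93 and 7.15 TPM in CAP wounds at day 6, with no overlap at either day. Its effect was 0.52 at day 3 (interval -0.11 to 1.16) and -0.98 at day 6, so it was not classed as reversed. The median endothelial day 6 effect was -0.99, with 6 genes lower by the 2-fold rule (3.23% of all genes). Without CAP_Day6 replicate 2 the median was -0.52, with 0 genes lower. That count was also 0 without P-F127_Day6 replicate 3, and 11 without P-F127_Day6 replicate 2, CAP_Day6 replicate 1 or CAP_Day6 replicate 3. Pericyte and smooth muscle markers, the cells of the vessel wall, summed to between 484.6 and 548.5 TPM and between 283.6 and 673.4 TPM in sham and CAP wounds of day 3, and to between 572.2 and 744.8 TPM and between 228.4 and 412.2 TPM at day 6, which overlapped at day 3 and not at day 6. All 8 had interactions below 0, with a median of -0.94, and 0 were past the threshold with all libraries, 4 without CAP_Day6 replicate 1 and 3 without P-F127_Day3 replicate 3 or CAP_Day6 replicate 3. The part of blood or vessel content in the reversed genes was not tested.

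Mmp8, the collagenase of neutrophil granules, had the lowest interaction of the reversed genes, -3.78 ± 1.10 (SE). It was at 27.03, 7.18 and 7.60 TPM in sham wounds and at 32.04, 53.59 and 55.00 TPM in CAP wounds at day 3. At day 6 the sham libraries held 28.23, 35.53 and 40.10 TPM and the CAP libraries 7.26, 3.11 and 41.07 TPM, so the groups overlapped at day 6 through the third CAP library. Of 12 neutrophil markers tested, 2 were past the threshold below 0 (2.73% of all genes), Mmp8 and Retnlg. The count was 5 without CAP_Day6 replicate 3 and 1 without any of 6 other libraries, CAP_Day6 replicate 2 among them, and Retnlg was past the threshold in 5 of 12 fits with 1 library left out. All 12 interactions were below 0, with a median of -1.25, or -0.59 without CAP_Day6 replicate 2. The neutrophil markers summed to overlapping ranges at both days, 1855 to 6241 and 1956 to 5042 TPM at day 3, and 1809 to 3461 and 308.1 to 2788 TPM at day 6, sham first.

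The remaining reversed genes with no overlap and the lowest interaction p included Dbil5, Dpp4, AI182371, Pcdh20 and Prdm8 above 0, and Xlr4a and Wscd1 below 0. Dpp4, dipeptidyl peptidase 4, a surface enzyme that trims chemokines and peptide hormones and marks a subset of dermal fibroblasts, lies at chr2:62330073-62412231 on the minus strand. It was at 38.92, 45.07 and 45.45 TPM in sham wounds and at 26.84, 21.01 and 31.87 TPM in CAP wounds at day 3. At day 6 the sham libraries held 31.81, 20.72 and 28.76 TPM and the CAP libraries 39.61, 54.45 and 38.69 TPM. The CAP libraries were below every sham library at day 3 and above every sham library at day 6, by -0.71 (interval -1.15 to -0.28) and 0.71 log2 (0.28 to 1.14). Of 10 fibroblast markers tested, Dpp4 included, 2 were past the threshold, both above 0 (2.18% of all genes), or 1 or 2 with 1 library left out. All 10 day 3 effects were below 0, with a median of -0.48. The markers summed to 1180 to 1298 TPM in sham and 690.9 to 1017 TPM in CAP wounds at day 3, with no overlap. At day 6 the list did not follow Dpp4. There 6 of the 10 effects were below 0, with a median of -0.23, and the sums overlapped, 1071 to 1560 and 1175 to 1307 TPM, sham first.

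Dbil5, a relative of the acyl-CoA binding protein, had the highest interaction of the reversed genes, 2.81 ± 0.54 (SE), at low levels. It was at 1.28, 1.43 and 0.67 TPM in sham and at 0.25, 0.51 and 0.46 TPM in CAP wounds at day 3, and at 0.47, 0.55 and 0.27 TPM in sham and 1.73, 1.65 and 0.98 TPM in CAP wounds at day 6. It overlaps Glod4 and Gemin4 on the other strand, and the sources used here do not state whether strand was used. AI182371 (interaction 2.16), Pcdh20, a protocadherin of cell adhesion (2.14), and Prdm8, a member of the PRDM family of chromatin regulators (1.83), were measured at low levels. Xlr4a on the X chromosome (-1.47) shares 84.8% of its 31-base stretches with other genes, most with Xlr4c. Wscd1 (-1.60) was at 0.20, 0.20 and 0.22 TPM in sham and 0.73, 0.38 and 0.34 TPM in CAP wounds at day 3. At day 6 it was at 1.10, 1.39 and 1.14 TPM in sham and 0.80, 0.57 and 0.71 TPM in CAP wounds.

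**Figure D2:**
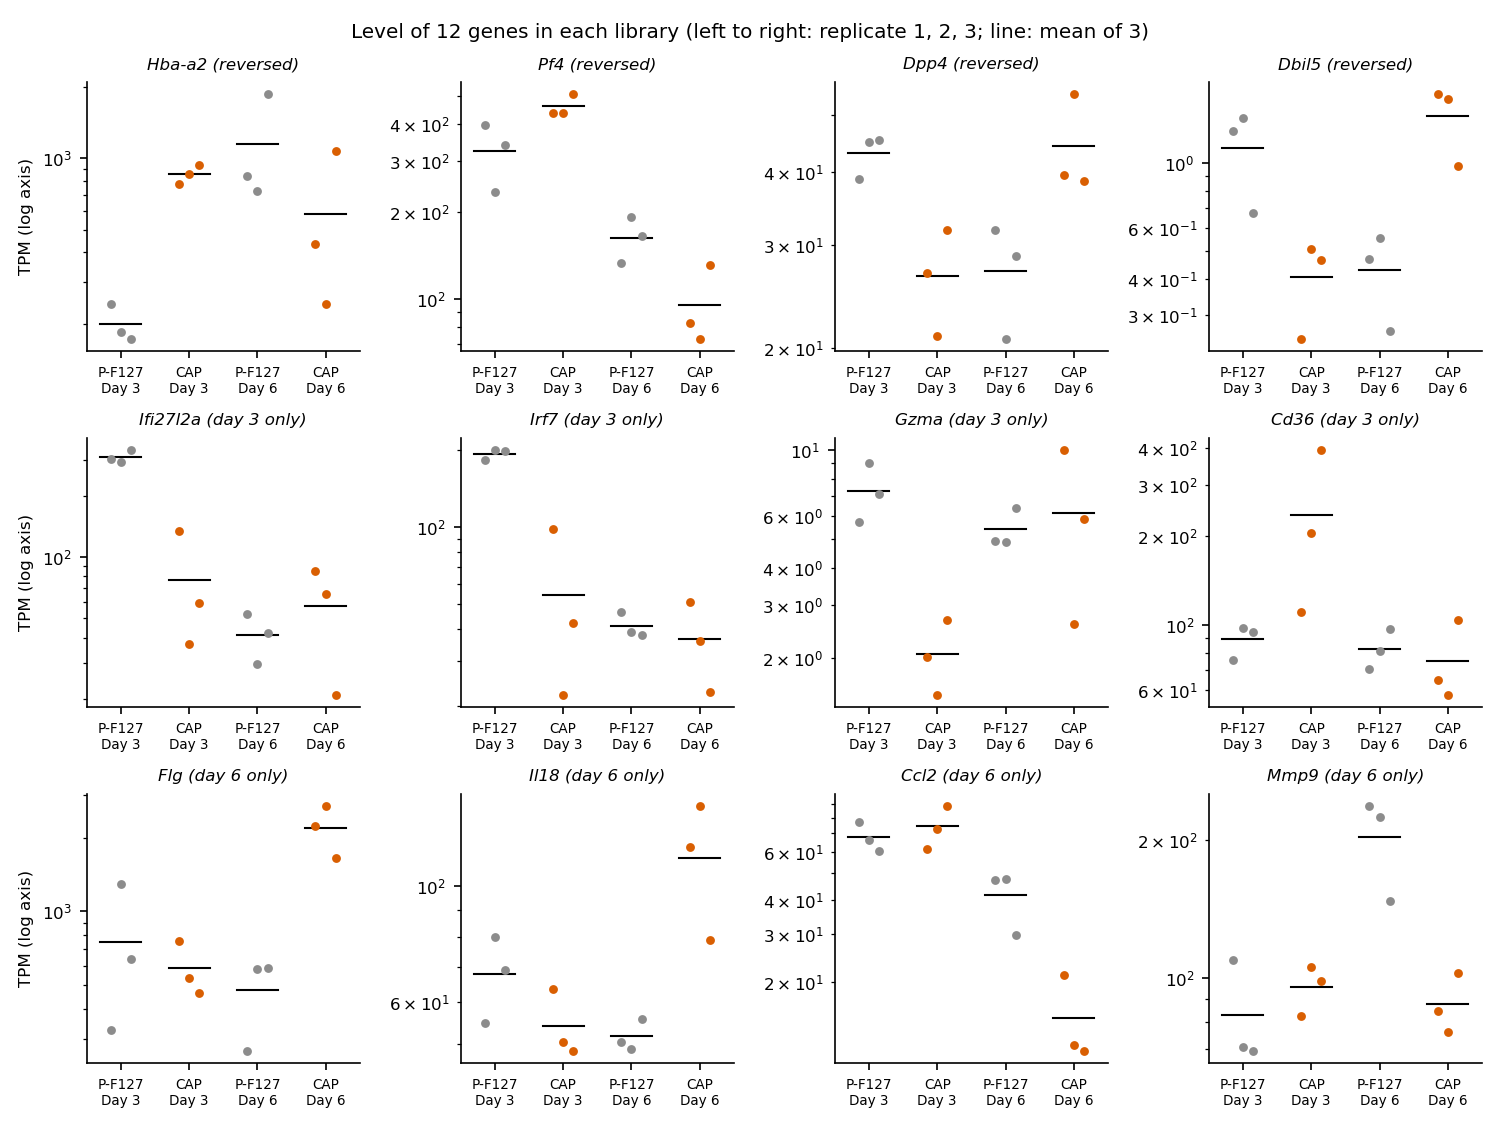
Level in TPM (log axis) of 12 genes in the 3 libraries of each group, grey for P-F127 and orange for CAP, with a line at the mean. In the upper panels the CAP mean changes sides between the days, although the Hba-a2 groups overlap at day 6. In the middle panels the groups differ at day 3 and overlap at day 6, and in the lower panels they overlap at day 3 and differ at day 6.

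At day 3 only, 39 genes were lower with CAP and 9 were higher. In the 36 of the 39 that no library listed at 0, day 3 effects ran from -2.55 to -1.01, with a median of -1.23, and day 6 effects from -0.35 to 0.45. In 38 of the 39 the groups did not overlap at day 3, a separation that the class limits favour and whose share over all genes tested was not counted. The background was 1.64% of genes lower and 0.75% higher at day 3 by the 2-fold rule. For 16 of the 39 the mean level was under 1 TPM. In 2 of the 48 genes a whole group was listed at 0.

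Interferon-inducible genes were among these. Ifi27l2a, an interferon-inducible gene (chr12:103442167-103443680, minus strand), was at 301.8, 292.4 and 336.1 TPM in sham wounds at day 3 and at 134.3, 37.16 and 59.44 TPM with CAP. The day 6 values were 52.25, 29.77 and 42.21 TPM in sham wounds and 85.37, 65.71 and 20.88 TPM with CAP. The sham libraries of day 3 were above all 9 others, and at day 6 the groups overlapped. Its effect was -2.21 (interval -3.36 to -1.06) at day 3 and 0.28 (-0.87 to 1.43) at day 6, an interval that leaves room for an effect of nearly 1 log2 in the day 3 direction. Irf7, the transcription factor that amplifies type I interferon production, was at 183.4, 201.3 and 199.1 TPM in sham and 98.75, 22.05 and 42.39 TPM in CAP wounds at day 3. At day 6 it was at 46.71, 38.80 and 37.90 TPM in sham and 51.19, 35.75 and 22.69 TPM in CAP wounds. Its effects were -2.10 and -0.24. Cxcl9, a chemokine induced by interferon gamma that draws T cells, had effects of -1.52 and -0.28.

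Beyond these 3 genes, effects in the interferon response list were below 0 at both days and mostly smaller in size at day 6. Of 40 genes tested, 3 were past the interaction threshold, all above 0 (2.18% of all genes), and 38 of the 40 interactions were above 0. At day 3, 26 of the 40 were lower by the 2-fold rule (1.64% of all genes) and all 40 effects were below 0. At day 6, 4 were lower by the 2-fold rule (3.23% of all genes) and 39 of 40 effects were below 0. The median effect was -1.24 at day 3 and -0.59 at day 6, a median interaction of 0.50. The interaction count depended on single libraries. It was 16 of 40 without CAP_Day3 replicate 1, the CAP library of day 3 with the highest interferon level. It was 8 without P-F127_Day6 replicate 1 or without CAP_Day6 replicate 3, and 6 without CAP_Day6 replicate 2. The day 3 count was 14 without CAP_Day3 replicate 2. At day 6 the count of 4 was 12 without CAP_Day6 replicate 1, 1 without P-F127_Day6 replicate 1 or CAP_Day6 replicate 2, and 2 without CAP_Day6 replicate 3. In sham wounds the list's mean level went from between 4.46 and 4.55 log2(TPM + 0.1) at day 3 to between 3.34 and 3.77 at day 6. In CAP wounds it was between 2.73 and 3.93 at day 3 and between 2.63 and 3.45 at day 6.

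Several T and NK cell genes were lower with CAP at day 3, with day 6 effects near 0. Gzma, the granzyme A protease of killer cells (chr13:113093825-113100981, minus strand), was at 5.71, 9.02 and 7.12 TPM in sham and at 2.02, 1.497 and 2.68 TPM in CAP wounds at day 3. On the sixth day the levels were 4.94, 4.90 and 6.37 TPM in sham and 9.99, 2.59 and 5.86 TPM in CAP wounds. The groups did not overlap at day 3, and at day 6 the CAP libraries lay on both sides of the sham libraries. The effect was -1.78 (interval -2.67 to -0.90) at day 3 and -0.00 (-0.89 to 0.88) at day 6. Ncr1, an activating receptor of NK cells, had effects of -1.52 and -0.05. Cd8b1, the beta chain of CD8, was tested because of P-F127_Day3 alone, the only group with a mean of 0.3 TPM or more. It was listed at 0 in 2 of the 3 CAP libraries of day 3, and no fold is given. It was past the threshold in 8 of the 11 fits with 1 library left out that tested it. Nkg7, a granule protein of cytotoxic cells, was reversed, with effects of -0.70 and 0.67.

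Of 14 T and NK cell markers tested, 7 were past the interaction threshold, all above 0 (2.18% of all genes). Of the 7, 5 were day 3 only, Cd8b1 included, which was tested because of P-F127_Day3 alone. At day 3, 6 of the 14 were lower by the 2-fold rule (1.64% of all genes), and at day 6, 0 of the 14 were (3.23%). The median effect was -0.84 at day 3 and -0.00 at day 6, the latter 0.19 under quantile normalization. The mean level over the list was between 1.43 and 1.81 log2(TPM + 0.1) in P-F127_Day3 and between 0.56 and 0.99 in CAP_Day3, with no overlap, and between 1.62 and 1.99 and between 1.54 and 1.96 in the P-F127 and CAP groups of day 6. The 7 interaction calls were 3 without P-F127_Day3 replicate 3 or CAP_Day3 replicate 2, and 4 without CAP_Day6 replicate 1 or 2. The receptor subunits that define T cells did not follow: Cd3e, Cd3g and Cd3d had day 3 effects of -0.01, 0.19 and -0.23, and Cd4 had -0.20. These 4 markers were named after their values were seen.

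Other genes lower with CAP at day 3 only were Gm2007, Haao, Tmem28 and Nav3, by the lowest interaction p. Haao, an enzyme of the path from tryptophan to NAD, was at 1.21, 1.54 and 1.74 TPM in sham and at 0.82, 0.53 and 0.55 TPM in CAP wounds at day 3, and its day 6 effect was 0.39 (interval -0.31 to 1.09). Tmem28 had effects of -1.34 and 0.29. Nav3, a microtubule-associated protein first described in neurons, had effects of -1.02 and 0.13. Gm2007 had effects of -1.07 and -0.01, and every 31-base stretch of it also stands in other genes (100%). Among monocyte and macrophage markers, 15 tested, Ly6c2, the antigen of inflammatory monocytes, was day 3 only with effects of -2.48 and -0.35, and its day 3 levels were 53.94, 86.97 and 79.80 TPM in sham and 30.41, 16.53 and 4.16 TPM in CAP wounds. In the same list Itgam, an integrin chain of myeloid cells, was day 6 only, with effects of 0.39 and -1.03, and 68.1% of its 31-base stretches also stand in other genes, most in Gm49368, which overlaps it. Lyz2, a lysozyme, was past the threshold below 0 (0.64 and -0.51) and in none of the classes. These 2 calls depended on single libraries: with 1 library left out, Itgam was past the threshold in 5 of 12 fits and Lyz2 in 4 of 12, and without CAP_Day6 replicate 2 their interactions were -0.98 and -0.93. The list's median effects were -0.31 at day 3 and -0.52 at day 6.

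Of the 9 genes higher with CAP at day 3 only, 6 had no library listed at 0, and their day 3 effects ran from 1.01 to 1.58 and their day 6 effects from -0.50 to 0.10. Cd36, a receptor for fatty acids and oxidised lipoproteins on macrophages and vessel cells (chr5:17781690-17888801, minus strand), was at 75.94, 97.44 and 94.29 TPM in sham and at 110.5, 205.8 and 394.3 TPM in CAP wounds at day 3. At day 6 it was at 70.38, 81.15 and 96.68 TPM in sham and at 64.73, 57.51 and 104.0 TPM in CAP wounds. The day 3 groups did not overlap, although the CAP libraries differed more among themselves than the sham libraries did. Il7r, the receptor chain for interleukin 7, was at 8.83, 13.88 and 13.31 TPM in sham and at 15.51, 31 and 92.81 TPM in CAP wounds, with effects of 1.58 and -0.44. In both genes the third CAP library of day 3 was the highest. Tmem82 (1.11 and -0.50), Pianp, a neural membrane protein (1.01 and -0.41), and Srsf12, a splicing factor whose levels stayed at or below 0.51 TPM (1.35 and -0.15), were the other 3 named. Srsf12 was tested because of CAP_Day3 alone, the only group with a mean of 0.3 TPM or more. Its effects rest largely on the added 0.1 TPM, and with all libraries its interaction ran from -2.41 to -0.36 under other processing. The 5 named genes kept the sign of the interaction under each left-out library and were past the threshold in 5 to 8 of the 12 such fits.

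At day 6 only, 123 genes were higher with CAP and 100 were lower. A library listed at 0 leaves an effect to the added 0.1 TPM, so ranges are given for genes with no such library. In 120 of the 123 higher genes, day 6 effects ran from 1.001 to 2.57, with a median of 1.19, and day 3 effects from -0.49 to 0.20. In 87 of the 100 lower genes, day 6 effects ran from -2.21 to -1.003, with a median of -1.26. The groups did not overlap at day 6 in 121 of the 123 and in 86 of the 100. The class limits at day 6 favour such separation, and its share over all genes tested was not counted. The background at day 6 was 1.85% of genes higher and 3.23% lower by the 2-fold rule. The higher genes were measured at a median level of 34.3 TPM over all libraries and the lower genes at 4.77 TPM. A whole group was listed at 0 in 4 of the 223 genes.

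Genes of terminal epidermal differentiation were frequent in the higher set. Of 51 protein-coding genes tested between chr3:92080271 and 93399442, the span of the epidermal differentiation complex, 20 were past the interaction threshold above 0 (39.2%, against 2.18% of all genes) and all 20 were day 6 only, while 2 were past it below 0 (against 2.73%). Without CAP_Day6 replicate 2 the 20 became 8, and without any other library they were 15 to 23. The 2 below 0 ranged from 0 to 5. Flg, filaggrin, which bundles keratin and yields the natural moisturising factor (chr3:93273523-93293686, plus strand), was at 325.7, 1290 and 637.9 TPM in sham and at 758.8, 534.1 and 465.0 TPM in CAP wounds at day 3. By day 6 the values were 268.2, 580.4 and 585.1 TPM in sham and 2229, 2703 and 1646 TPM in CAP wounds. The CAP libraries of day 6 were above all 9 others, and the day 3 groups overlapped. The effect was -0.17 (interval -1.17 to 0.84) at day 3 and 2.25 (1.25 to 3.26) at day 6. Hrnr, hornerin, a relative of filaggrin, had effects of -0.01 and 1.30, and was at 368.0, 420.1 and 227.8 TPM in CAP_Day6 against 99.03 to 167.9 TPM in the other 9 libraries.

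The late cornified envelope genes split by family. These families were chosen after their values were seen. In the Lce1 family, whose products are added to the envelope late in differentiation of normal epidermis, 13 of 14 genes were past the threshold above 0 (2.18% of all genes), or 4 of 14 without CAP_Day6 replicate 2 and 9 to 13 without any other library, with day 6 effects from 0.91 to 1.58 and day 3 effects from -0.11 to 0.19. Lce1h was at 283.9, 455.1 and 176.1 TPM in CAP_Day6 and at 70.81, 129.2 and 93.58 TPM in the sham group of that day, with no overlap, while its day 3 groups overlapped. Its day 3 effect was -0.05 (interval -0.78 to 0.69). In the Lce3 family, whose members are known from injured and psoriatic skin, 1 of 6 genes was past the threshold, below 0 (2.73% of all genes). All 6 day 6 effects were negative, from -1.88 to -0.43. The Sprr family of small proline-rich proteins, also used in wound epidermis, had 1 of 15 past the threshold, below 0 (2.73% of all genes). Its median day 6 effect was -1.02. With 1 library left out, the calls below 0 ranged from 0 to 4 in the Lce3 family and from 0 to 2 in the Sprr family. Lce1 copies share sequence, 58.8% of 31-base stretches for Lce1i and 47.7% for Lce1h, so single members are uncertain. In Skint genes, a family whose member Skint1 is needed by the gamma delta T cells of mouse epidermis, 4 of 11 were past the threshold above 0 (2.18% of all genes), and 2 of 11 without CAP_Day6 replicate 2, P-F127_Day6 replicate 2 or P-F127_Day3 replicate 2, while 8 were without P-F127_Day6 replicate 1. Of the S100a genes, calcium-binding proteins, 0 of 12 were past the threshold in either direction (4.9% of all genes).

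Over the whole cornified envelope list, 38 genes tested, 14 were past the interaction threshold above 0 and 2 below 0, against 2.18% and 2.73% of all genes, and all 16 were day 6 only. The median effect was 0.05 at day 3 and 0.92 at day 6. At day 6, 18 genes were higher and 3 lower by the 2-fold rule, against 1.85% and 3.23% of all genes. Without CAP_Day6 replicate 2 the interaction count above 0 was 7 and the day 6 count 8, with a median day 6 effect of 0.74. The interaction count below 0 ranged from 0 to 4 with 1 library left out, and the 3 lower genes at day 6 became 6 without P-F127_Day6 replicate 3 or CAP_Day6 replicate 1. The list summed to between 24130 and 31290 TPM in sham wounds of day 6 and to between 48300 and 104400 TPM with CAP, and at day 3 the ranges overlapped, 22040 to 38690 and 23850 to 35230 TPM. Markers of keratinocytes as a whole moved less: of 12 tested, 1 was past the threshold, above 0 (2.18% of all genes). Their median effects were -0.02 at day 3 and 0.35 at day 6. Their sums overlapped at day 6, 15060 to 18190 TPM in sham and 16880 to 29060 TPM in CAP wounds. The part of keratinocyte content in these values was not tested.

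**Figure D3:**
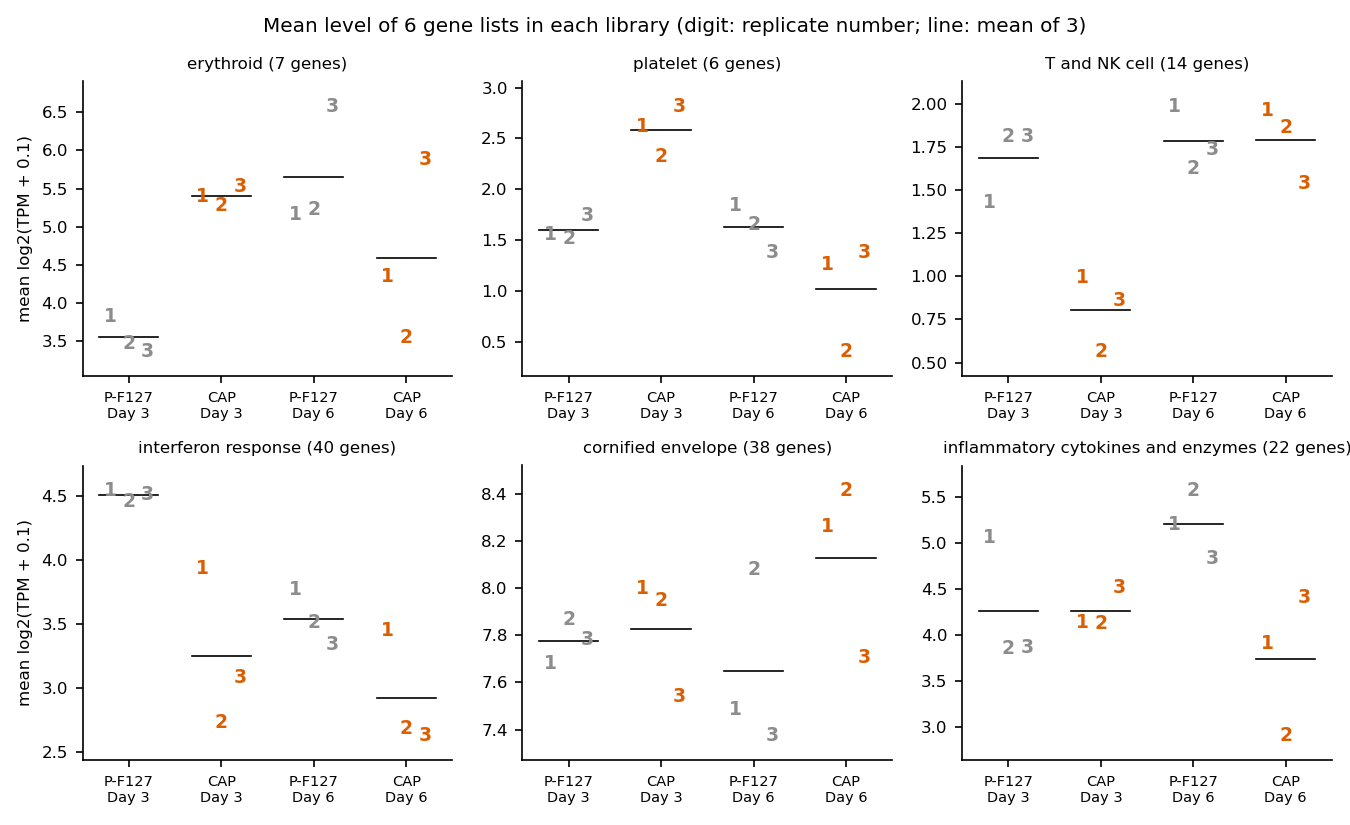
Mean log2(TPM + 0.1) over the tested genes of 6 lists in each library (y axis), by group (x axis), with the replicate number as the symbol, grey for P-F127 and orange for CAP, and a line at the group mean. For erythroid and platelet genes the CAP mean is above the sham mean at day 3 and below it at day 6. For T and NK cell genes the CAP_Day3 libraries, from 0.56 to 0.99, lie below all others.

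Outside the complex, the named genes higher with CAP at day 6 only were Il18, Gpt, Srcin1 and Gm10961. Il18, a cytokine of the IL-1 family that keratinocytes store (chr9:50554827-50581840, plus strand), was at 54.72, 79.80 and 69.05 TPM in sham and at 63.55, 50.36 and 48.49 TPM in CAP wounds at day 3. At day 6 it was at 50.36, 48.91 and 55.80 TPM in sham and at 118.4, 141.9 and 78.69 TPM in CAP wounds. The groups overlapped at day 3 and stood apart at day 6, with effects of -0.32 (interval -0.77 to 0.13) and 1.09 (0.63 to 1.54). Gpt, alanine aminotransferase, was at 15.57, 20.71 and 18.62 TPM in sham and at 47.33, 72.90 and 42.24 TPM in CAP wounds at day 6, and its effects were -0.10 and 1.53. Srcin1, an inhibitor of SRC kinase, had effects of -0.10 and 1.07 with sham levels of 17.57 to 22.33 TPM and CAP levels of 35.01 to 46.70 TPM at day 6. Gm38119, named by the same rule, lies within the epidermal differentiation complex and shares 30.1% of its 31-base stretches with other genes, most with Lce1i. Gm10961 had the lowest adjusted interaction p of limma, 0.172. It was listed at 0 in all 3 sham libraries of day 6 and at between 1.12 and 4.25 TPM in the other 9 libraries, and no fold is given.

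Genes lower with CAP at day 6 only included inflammatory chemokines and proteases. Ccl2, the main chemoattractant of monocytes (chr11:82035571-82037453, plus strand), was at 77.09, 66.30 and 60.35 TPM in sham and at 61.64, 72.66 and 88.38 TPM in CAP wounds at day 3. The day 6 values were 47.32, 47.68 and 29.68 TPM in sham and 21.30, 11.80 and 11.21 TPM in CAP wounds. The day 3 groups overlapped and the CAP libraries of day 6 were the lowest of all 12. The effects were 0.12 (interval -0.45 to 0.69) and -1.52 (-2.08 to -0.95), an interaction of -1.64 ± 0.36 (SE), or -1.51 without CAP_Day6 replicate 2. Ccl20, a chemokine that keratinocytes make and that draws CCR6-bearing cells, had effects of 0.09 and -1.89, with day 6 levels of 20.53, 12.32 and 14.66 TPM in sham and 2.72, 6.505 and 3.92 TPM in CAP wounds.

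Of 22 inflammatory cytokines and enzymes tested, 6 were past the interaction threshold, all below 0 (2.73% of all genes), and 4 of them were day 6 only. The list had 1 gene lower by the 2-fold rule at day 3 (1.64% of all genes) and 14 at day 6 (3.23%), with median effects of -0.03 (0.04 under quantile normalization) and -1.47. Without CAP_Day6 replicate 2 the day 6 count was 6 and the median -0.94, and without P-F127_Day6 replicate 2 the count was 7. The interaction count was 15 without P-F127_Day3 replicate 1, the sham library of day 3 with the highest level of the list, and 12 without CAP_Day6 replicate 3. Arg1, arginase of repair macrophages, and Cxcl3, a neutrophil chemokine, were past the threshold and in none of the classes, with day 3 effects of 1.44 and 1.21 and day 6 effects of -1.70 and -1.46. Arg1 was at 522.9, 1390 and 2057 TPM with CAP at day 3 and at 322.6, 123.0 and 846.5 TPM at day 6.

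Mmp9, the gelatinase of neutrophils, macrophages and migrating keratinocytes (chr2:164940780-164955850, plus strand), was at 109.1, 70.39 and 69.11 TPM in sham and at 82.62, 105.5 and 98.18 TPM in CAP wounds at day 3. At day 6 the sham libraries held 237.3, 223.7 and 147.1 TPM and the CAP libraries 84.50, 75.88 and 102.2 TPM. The sham libraries of day 6 were the highest of all 12, and CAP_Day6 lay within the range of day 3. Between the days, Mmp9 was 1.29 log2 higher at day 6 in sham wounds (interval 0.81 to 1.77), and in CAP wounds the difference was -0.13 (-0.61 to 0.35). Of 19 matrix proteases and their inhibitors tested, 8 were past the interaction threshold, all below 0 (2.73% of all genes), and 8 were lower by the 2-fold rule at day 6 (3.23% of all genes). The 8 interaction calls included Mmp8, Mmp3 and Mmp13, with interactions of -3.78, -1.27 and -1.95. Without CAP_Day6 replicate 2 the counts were 4 and 5, with Mmp3 at -0.96, and without P-F127_Day3 replicate 3 the interaction count was 5.

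Phox2a, a transcription factor of autonomic neurons, was at 1.02, 1.01 and 0.78 TPM in sham and at 0.12, 0.16 and 0.16 TPM in CAP wounds at day 6, and its day 3 effect was 0.41 (interval -0.54 to 1.36). Glycam1, a ligand of L-selectin on vessels of lymph nodes, was at 0.32, 0.41 and 0.50 TPM in sham wounds at day 6 and listed at 0 in the other 9 libraries, and no fold is given. Gm49673 was listed at 0 in all 6 libraries of day 3 and shares 95.4% of its 31-base stretches with other genes. Glycam1 and Gm49673 were tested because of P-F127_Day6 alone, the only group with a mean of 0.3 TPM or more. Of the 100 lower genes, 19 had a mean level under 1 TPM, against 14 of the 123 higher genes.

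Of the 25 genes that the study names from its own day 3 comparison, 9 were past the interaction threshold. Of these, 2 were above and 7 below 0, against 2.18% and 2.73% of all genes. The study chose this list on these libraries, so its direction at day 3 is no independent evidence. At day 3, 5 of the 25 were higher and 15 lower by the 2-fold rule, against 0.75% and 1.64% of all genes. At day 6, 0 were higher and 7 lower, against 1.85% and 3.23%. Of these counts, the 5 became 2 and the 15 became 7 without CAP_Day3 replicate 3. Without CAP_Day3 replicate 2 they were 3 and 7, and without P-F127_Day3 replicate 2 the 5 became 3. The 7 at day 6 became 2 without CAP_Day6 replicate 2, and the 2 interactions above 0 became 5 without CAP_Day3 replicate 1. Gm13306, which shares 80.6% of its 31-base stretches with other genes, most with the skin chemokine gene Ccl27a, was at 10.5, 4.63 and 6.22 TPM in sham and at 67.92, 45.04 and 40.92 TPM in CAP wounds at day 3. At day 6 it was at 70.8, 14.7 and 19.0 TPM in sham and at 13.4, 12.1 and 21.3 TPM in CAP wounds, and the groups overlapped. Its effects were 2.88 and -0.84.

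**Figure D4:**
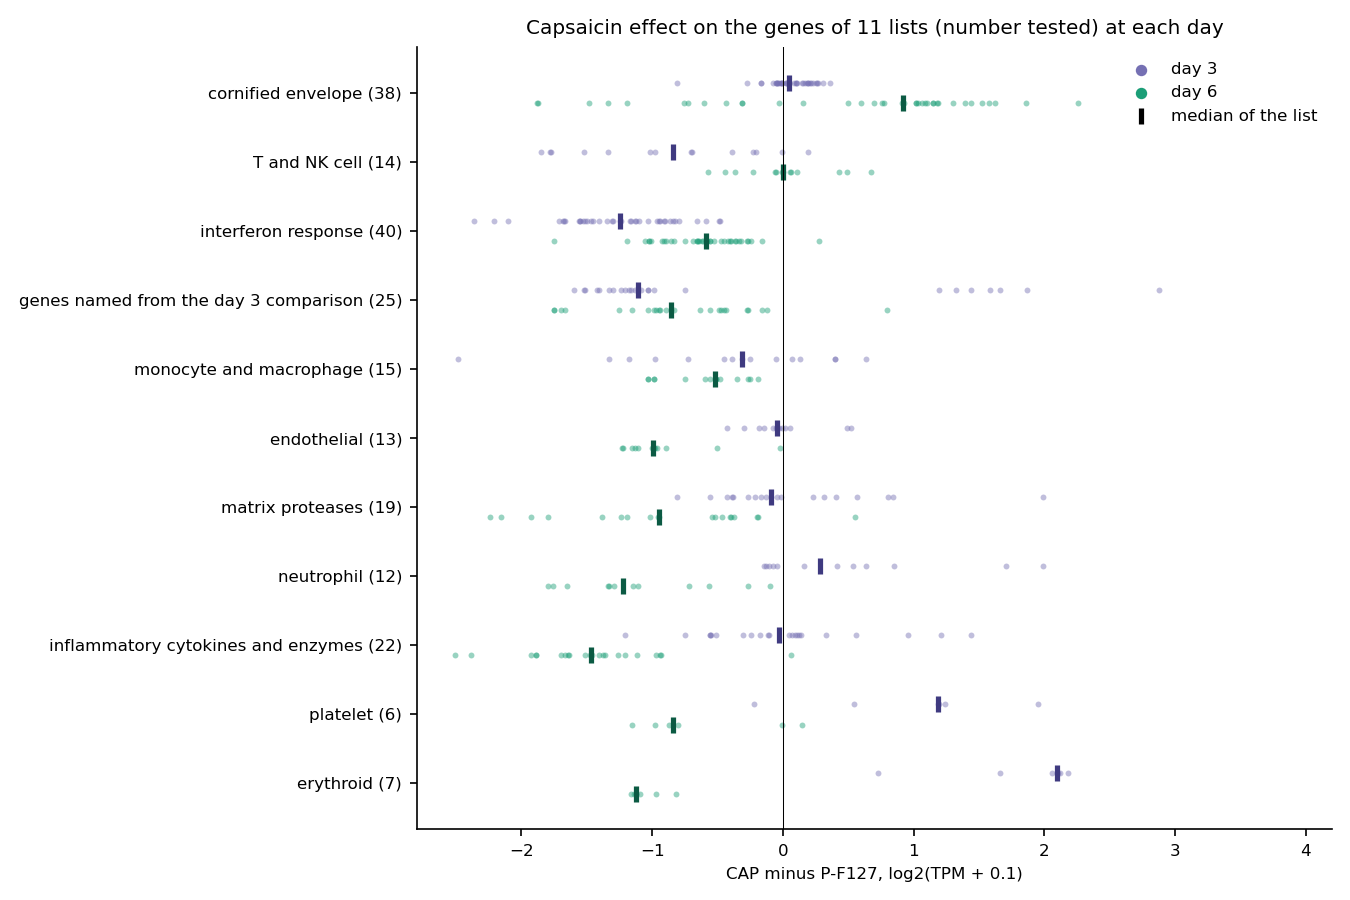
CAP minus P-F127 on the log2(TPM + 0.1) scale (x axis) for the tested genes of 11 lists (y axis, number tested in brackets) at day 3 and day 6, with a bar at each list's median. The medians change sign between the days for erythroid genes (2.098 and -1.122), platelet genes (1.19 and -0.84) and neutrophil genes (0.29 and -1.22), and the T and NK cell list goes from -0.84 to -0.00.

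Lists with no gene past the interaction threshold were MHC class II (7 genes tested), cholesterol synthesis (19), muscle regeneration (11), cell cycle (20), immediate early genes (19), heat shock (12), TRP channels and sensory neuropeptides (9), skeletal muscle (23), adipocyte (13), pericyte and smooth muscle (the 8 above), B and plasma cell (2), dendritic and Langerhans cell (8), mast cell (9) and Schwann cell (10). The remaining lists had 1 to 3 such genes each. Over all genes tested, 4.9% were past the threshold, 2.18% above and 2.73% below 0. Oxidative stress genes had 3 of 14 below 0, the integrated stress response 1 above and 2 below of 13, hair keratins 2 of 23 below, and the others 1 each. These counts hung on single libraries. With 1 left out, the counts below 0 ranged from 0 to 4 for oxidative stress, from 0 to 10 for hair keratins, with 10 without P-F127_Day6 replicate 2, from 1 to 5 for hypoxia and glycolysis, with 5 without CAP_Day3 replicate 1 or CAP_Day6 replicate 3, and from 0 to 4 for collagen and matrix, with 4 without CAP_Day6 replicate 3. Sebaceous and barrier lipid genes went from 0 to 5 above 0 without P-F127_Day3 replicate 3. Among the single calls was the reversed Bhlhe41 of the circadian list, a repressor of clock gene transcription, with effects of 0.83 and -0.77. It was named after its values were seen. By the unadjusted limma interaction p alone, 8 of the 15 circadian genes tested were under 0.05, against 11.3% of all genes. So were 6 of 13 integrated stress response and 5 of 20 cell cycle genes, mostly at less than 2-fold. In the circadian list 10 of 15 interactions were above 0.

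**Figure D5:**
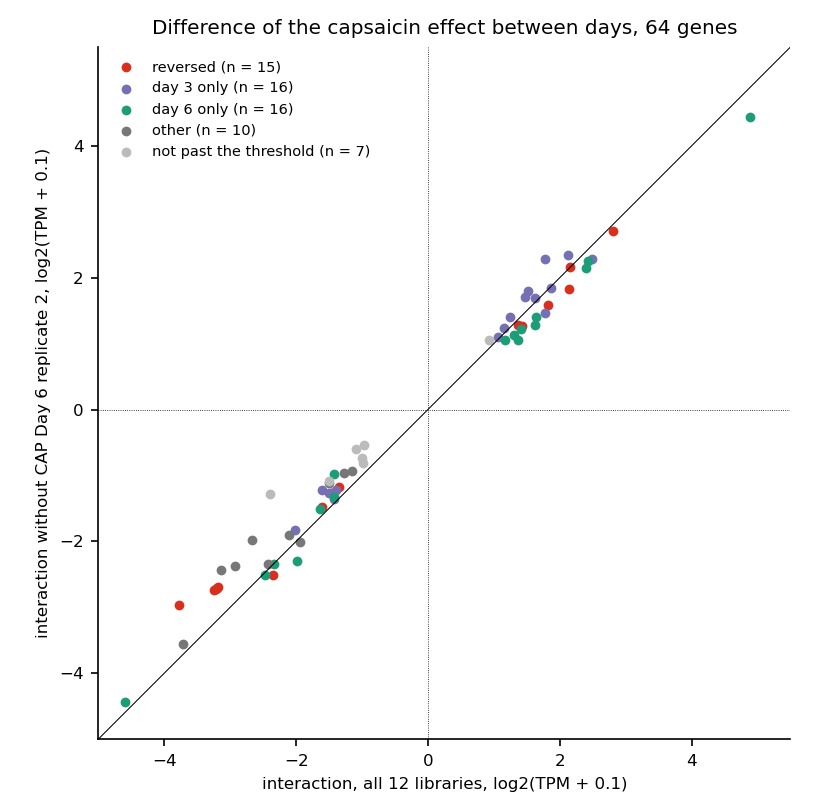
Interaction of the 64 named genes on the log2(TPM + 0.1) scale with all 12 libraries (x axis) and without CAP_Day6 replicate 2 (y axis), coloured by class, with the line of equal values. All 64 keep their sign; Hba-a2 goes from -3.24 to -2.74 and Mmp8 from -3.78 to -2.97.

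Members near the limits of the threshold show how the classes end. Gm11992 (1) and Rnf225 (1.001) were just inside the 2-fold limit of the interaction on the log2 scale, and Tagln (-0.999) and Zfp28 (-0.998) just outside it. Rflna was just inside the limit of the unadjusted limma p and C1ql3 just outside. The 361 protein-coding genes past the threshold and in none of the 3 classes comprised 74 with an unadjusted p under 0.05 at day 3 alone, 170 at day 6 alone, 117 at neither day and 0 at both days with the same sign.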

How the data were processed

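mRNA libraries (SureSelect XT HS2) of wound tissue were sequenced by the authors as read pairs, trimmed with Trimmomatic 0.36 (the labels also name bcl2fastq) and quantified with StringTie on mm10. The sources used here do not give the aligner. The deposited tables hold TPM per gene, 1 table per library, with 0.0001 as the lowest value, read here as listed at 0. TPM keeps no read depth, so depth is unknown. The column sums were all 1000003 after rounding, and 55227 of the 55487 genes were found in GENCODE M21, from which the biotypes were taken.

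The 12 libraries were grouped by their titles. log2(TPM + 0.1) was fitted with limma 3.58.1 (R 4.3.3) with an intensity trend, 1 mean per group, and p-values were adjusted by Benjamini-Hochberg over 20267 genes. The threshold, an unadjusted p under 0.05 with at least 2-fold, is that of the study. Named genes were, per class and direction, the 5 of smallest interaction p whose groups did not overlap, and at most 4 per list. The members and lists were chosen with earlier results of these data known. Other pseudocounts, filters, scalings, weights, blocks and left-out libraries were tried, and the counts of lists and families under each were added after seeing the data. Plots were drawn with matplotlib 3.10.9.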

Additional observations from a re-analysis of the deposited data

Results flagged for a closer look

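For 9 of the 64 named genes the CAP and P-F127 libraries did not overlap at either day and differed in opposite directions, a pattern shown by 124 of all genes tested (0.612%). All of the 9 but Cldn5 were named by a rule that required this pattern, so their number among the named genes is no excess over that share. The interaction contrast was the test of that difference, and none of the 9 had a limma adjusted p under 0.05 (0.428 for each). The interaction was 2.815 log2 for Dbil5, 2.159 for AI182371, 2.144 for Pcdh20, 1.828 for Prdm8 and 1.425 for Dpp4, each higher with CAP at day 6 in 3 of 3 libraries and lower in 3 of 3 at day 3. It was -1.602 for Wscd1, -1.5 for Cldn5, -1.466 for Xlr4a and -1.347 for Pf4, in the opposite order.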

How the results depend on the processing

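No named gene changed the sign of its interaction under any alternative, and 1297 of the comparisons of a named gene with an alternative kept their side of the threshold, 74 lost it and 27 gained it. The counts moved more. With array weights 1973 genes were past the threshold and 442 had an adjusted p under 0.05 in limma, with 175 reversed, 155 day 3 only and 371 day 6 only. A pseudocount of 1 TPM gave 580 genes past the threshold, 18 day 3 only and 141 day 6 only. Genes with an adjusted p under 0.05 numbered 1 with a pseudocount of 0.01 TPM and 5 with no filter on the mean. Whether the replicate numbers pair the libraries was not settled. Same-numbered libraries correlated between -0.086 and 0.198 in their deviations from the group means, and differently numbered libraries were not compared. An unadjusted limma interaction p under 0.05 was found for 3062 genes with a replicate block and for 2292 without. With a replicate block 1084 genes were past the threshold and the reversed genes numbered 58, and with a replicate block within each day 1013 and 45, with 4 adjusted calls. Leaving out 1 library gave 657 to 1777 genes past the threshold, 0 to 1 adjusted calls, 15 to 112 reversed genes, 21 to 106 day 3 only and 83 to 703 day 6 only, the extremes being 657 and 83 without CAP_Day6 replicate 2 and 1777, 112 and 703 without CAP_Day6 replicate 3. The 1 adjusted call arose without CAP_Day3 replicate 2 or CAP_Day6 replicate 3. The day 3 only count was 106 without CAP_Day3 replicate 1, 28 without CAP_Day3 replicate 2, 27 without P-F127_Day6 replicate 2 and 21 without CAP_Day6 replicate 1, and the day 6 only count was 134 without P-F127_Day3 replicate 2. The reversed count was 89 without CAP_Day3 replicate 1, 49 without P-F127_Day3 replicate 1, 18 without CAP_Day6 replicate 1, 16 without P-F127_Day3 replicate 2 or CAP_Day3 replicate 2, and 15 without P-F127_Day6 replicate 3. Quantile normalization moved the median day 6 effect from -0.12 to -0.00 and the share of interactions above 0 among those past the threshold from 44.4% to 53.0%. With a mean of 0.3 TPM required in all 4 groups, 9 named genes were not tested. The cause of these shifts was not tested. Read depth is unknown, so no limit of detection can be set for the low genes.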
